A study of Arabidopsis thaliana with 18 samples.

Results

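The transcriptome of wild-type Arabidopsis seeds was compared between the dry mature seed and germination stage II, the moment at which the seed coat has ruptured and the tip of the radicle is visible. The comparison used 6 of the 18 libraries of the series, 3 of Col-0 mature seeds and 3 of Col-0 seeds at stage II, which were chosen by their labels alone and not by any measured value. Both groups were the Col-0 ecotype with the control genotype, came from plants kept at 23 °C during seed production, and were sampled as entire seeds, so that embryo, endosperm and seed coat were pooled. Mature seeds were dried seeds. Stage II seeds were dried for 3 days, then imbibed in water and incubated in the light. Each biological replicate was RNA of 100 seeds, and the hours of imbibition behind stage II are not given in the sources used here. The other 12 libraries were Col-0 at stage IV and the demethylase mutant ros1-4, a T-DNA line in the Col-0 background, at the same stages. The ros1-4 step from mature seed to stage II is given beside the Col-0 step because it shares no library with it.

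A dry seed carries reserves laid down during maturation: cruciferins (12S globulins), napins (2S albumins) and oil in bodies coated by oleosins. It also carries late embryogenesis abundant (LEA) proteins and small heat shock proteins, which are associated with survival of drying. Abscisic acid (ABA) holds the maturation programme and dormancy in place, and gibberellin promotes germination, in part through enzymes that loosen cell walls. After imbibition the oil is broken down by beta-oxidation in peroxisomes, and the glyoxylate cycle and gluconeogenesis turn its carbon into sugar before the seedling can photosynthesise. Dry seeds contain stored mRNA, so a level in them is that of the stored pool.

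The 6 libraries had total counts of 18737837 to 19392948, with 18998 to 19133 genes detected in mature seeds and 20573 to 20813 at stage II. Replicates differed by more than counting noise, and stage II replicate 3 stood apart from the other stage II libraries, with 276 genes at least 2-fold from both of them against 7 to 27 in the other libraries of the comparison. Its values are therefore given in full below. The gene ROS1, the mutated gene of the ros1-4 line, had counts of 2578, 2455 and 2547 in the libraries labelled Col-0 mature seed and of 256, 273 and 281 in those labelled Col-0 stage II. In libraries labelled ros1-4 its mean level was 136.4 CPM in mature seeds and 44.9 CPM at stage II. On the same scale the libraries labelled Col-0 had 202.8 and 10.94 CPM. At stage II the gene was thus higher in the libraries labelled as its mutant (SD 1.197, n = 3) than in those labelled Col-0 (SD 0.655, n = 3). The labels were kept, and the cause of this difference was not tested. The sources used here do not state that counting used strand, so values of genes whose annotated span overlaps another gene are uncertain. Of the genes named below these are AT2G43140, AT1G05510, AT3G05260, TIP3;1, TIP3;2, PYK10, OLEO1, RAB18, HSFA9, EXPA2, MAN6, MAN7, MFT, EEL, SNRK2.3, KAT5, TSO2, HTR3, CYCD1;1, CYCD3;2, TUA1, TUB1, NUC1, FIB1, FIB2, P40, RPL18AA, GOLS1, AGAL2, CAT2, PIF6, MUM4 and ALC.

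Most of the detectable transcriptome changed. Of 18388 genes tested, 8693 rose (47.3%) and 7535 fell (41.0%) in the edgeR quasi-likelihood test (p-values adjusted by Benjamini-Hochberg, threshold 0.05). Because so many genes passed, a second rule of size was used, a change of at least 8-fold (3 on the log2 scale), and 3303 genes rose (18.0%) and 1515 fell (8.24%) by it. The genes with an 8-fold fall held 57.79, 59.17 and 59.23% of all counts in the mature libraries and 1.968, 2.249 and 1.437% at stage II. The genes with an 8-fold rise went the other way, from 0.4324, 0.415 and 0.4382% to 19.2, 18.73 and 21.02%. The mature pool was also the more concentrated one, since its 10 most abundant genes took 29.37% ± 1.075 of the counts (SD, n = 3) against 7.487% ± 0.1588 at stage II. In whole seeds, fewer cells of a type and less RNA per cell cannot be told apart.

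The scale on which the groups are compared matters here. With TMM scaling, which sets the bulk of genes level between groups, the log2 fold change had a median of 0.17 over the tested genes. With library size alone it was 1.14, the calls became 12157 rises and 4316 falls, so that rises were 73.8% of the calls in place of 53.6%, and 2323 called genes changed sign. A direction was therefore followed under 5 scalings, and 7671 rises and 4316 falls kept their call and direction in all of them. The shift of the median with library size alone was smaller than 8-fold, so genes past that rule had little room to change direction. Every one of the 3303 rises and 1515 falls of at least 8-fold was still called in the same direction with it, which is therefore a description. Levels below are TMM-scaled CPM (counts scaled to a library total of fixed size), the direction of a single named gene held under all 5 scalings unless stated otherwise, and for each list the members whose call and direction held under all of them are given. Of the genes tested, 1588 had at most 3 counts in every mature library and 406 in every stage II library. Such genes passed the filter on low counts through the other group and so had to differ, and the lists that hold many of them are described by their remaining members. Of the 16800 tested genes with more than 3 counts in a mature library, 7105 rose, 1764 of them by at least 8-fold, and 7535 fell.

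**Figure D1:**
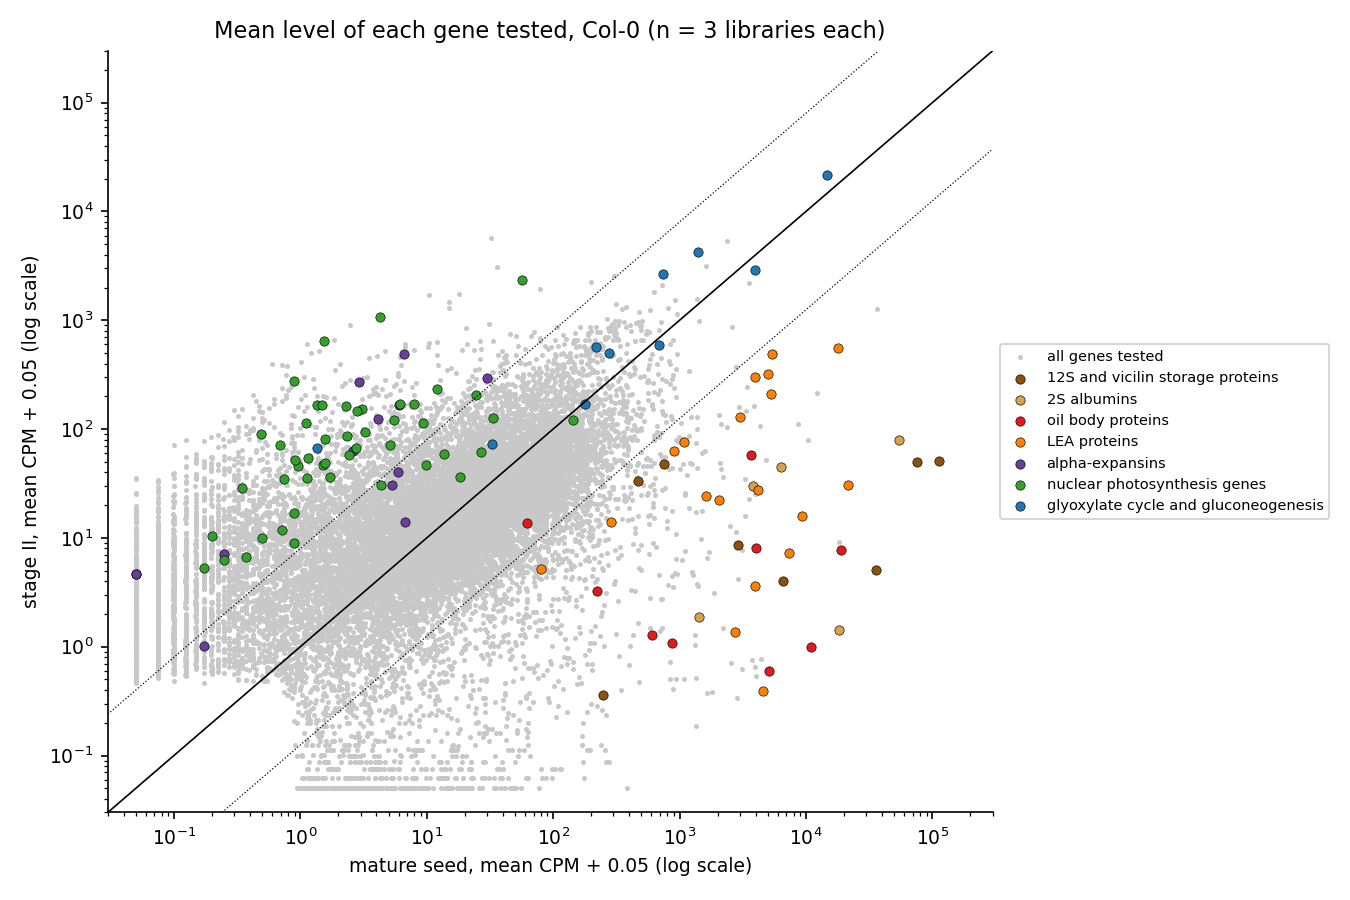
Mean level of every gene tested in mature seed (x axis) and at stage II (y axis), in TMM-scaled CPM plus 0.05 on log scales, n = 3 libraries each, with members of 7 gene lists coloured. The solid line marks equal levels and the dotted lines an 8-fold difference. Storage protein, oil body and LEA genes lie to the lower right, most photosynthesis and expansin genes to the upper left, and the most abundant glyoxylate cycle gene, ICL, close to the line of equal levels at the top.

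The 12 largest falls were of genes of storage, oil bodies and drying tolerance and of genes of other kinds. All went from high counts in the mature pool to low counts. They had between 17792 and 501751 counts in every mature library and between 2 and 146 at stage II, a drop of the mean level by 5387 to 13530-fold (adjusted p at most 1.05e-09, edgeR). ECP31, a LEA protein, had counts of 63524, 61521 and 60202 in mature seeds and of 7, 13 and 7 at stage II. The napin SESA5 had 225153, 243834 and 270080 counts and then 23, 40 and 46. HSD1, a steroleosin of the oil body membrane, had 151635, 148324 and 140831 and then 23, 28 and 24, although a near-identical copy of this gene makes the split of its reads uncertain. The rule that chose these genes required groups without overlap. The others were the oleosin OLEO4, the vicilin-like PAP85, the tonoplast aquaporin TIP3;2, the small heat shock protein HSP17.6A, the metallothionein AtMT4a, the wall enzyme XTH25, AT1G05510, AT3G05260 and AT1G54860. XTH25 had 39754, 37947 and 37028 counts and then 6, 15 and 2, and its log2 fold change of -13.24 became -14.16 without stage II replicate 2.

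The 12 largest rises included wall, lipid and oxidase genes with at most 22 counts in any mature library and 1038 to 22083 at stage II, 461.3 to 732.6-fold between means (adjusted p at most 1.36e-06, edgeR). The peroxidase AT5G64100 had counts of 4, 3 and 15 and then 9347, 8605 and 14001. ELP, an extensin-like protein, had 14, 11 and 19 and then 12874, 13270 and 22083. FTM1, a stearoyl-acyl carrier protein desaturase, had 2, 3 and 22 and then 7600, 10786 and 12636. Groups without overlap were required by the rule here too, and the size of these folds rests on the few mature counts. RPT2 (a phototropism signalling protein), the beta-xylosidase BXL1, MLP28, PLAT2, AT1G12805, the cysteine protease AT1G29090, the lipid-transfer-like AT4G15160, the bHLH gene AT2G43140 and AT4G33560 completed the set, and AT4G33560, at the floor of 3 counts in all mature libraries, rose at least 524.9-fold. Mature replicate 3 held the most counts for many of them, and without it the log2 fold change went from 9.50 to 10.55 for AT5G64100, from 9.20 to 11.76 for RPT2, from 9.17 to 10.98 for FTM1, from 9.10 to 10.05 for AT1G29090, from 9.09 to 10.37 for AT4G15160, from 8.92 to 13.09 for AT2G43140 and from 8.99 to 9.72 for BXL1. Over all 3303 rises of at least 8-fold, mature replicate 3 had the highest of the 3 mature values for 1106, replicate 2 for 868 and replicate 1 for 724.

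**Figure D2:**
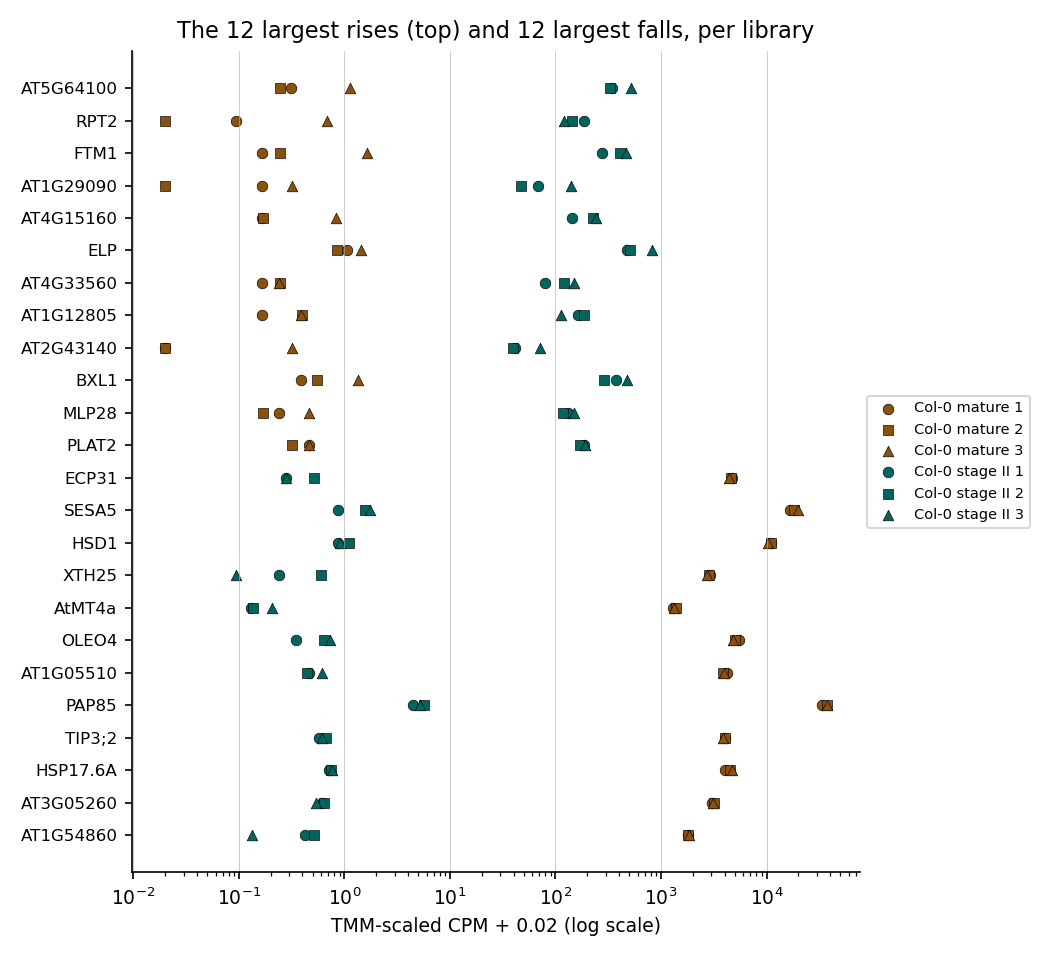
TMM-scaled CPM plus 0.02 (log scale) of the 12 largest rises and the 12 largest falls in each of the 6 Col-0 libraries, one symbol per library. Mature and stage II symbols are separate in every row, which the rule that chose the genes required. The spread among mature libraries is widest in the rises, where counts are at most 22.

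By gain and loss of CPM rather than by fold, the stage II pool was led by other genes. The 5 largest losses were CRC, CRA1, SESA3, EPR1 and PAP85, and the 5 largest gains were ICL, PYK10, AT1G54010, HSC70-1 and PCK1. PYK10, a beta-glucosidase that builds up in ER bodies, had counts of 385, 312 and 616 in mature seeds and of 164738, 143971 and 145880 at stage II. AT1G54010, a GDSL lipase-like protein, had 418, 453 and 575 and then 85180, 78569 and 85053. Ranked by counts per effective transcript length, which allows levels of different genes to be compared, they went from ranks 5272 and 5315 to ranks 2 and 5. HSC70-1, a constitutive heat shock cognate chaperone, was abundant in both groups, at 2375 ± 190.3 and 5312 ± 252.5 CPM (SD, n = 3). On the same scale SESA3, CRC and CRA1 led in mature seeds, at ranks 1, 2 and 3, and at stage II they were at ranks 1132, 5901 and 4840. The first ranks at stage II went to ICL (rank 24 in mature seeds), PYK10 and RBCS1A (rank 2533).

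All seed storage protein genes fell. All 8 genes of the 12S and vicilin list fell by at least 8-fold, with a median log2 fold change of -10.09 against 0.17 for all genes tested, and so did all 5 2S albumins (median -9.44). CRC, the cruciferin with the largest share of the mature pool, had counts of 1511167, 1490896 and 1599369 in mature seeds and of 1154, 1556 and 1336 at stage II (log2 fold change -11.14, SE 0.32, adjusted p = 1.66e-09, edgeR). CRA1, another cruciferin, had 992051, 1011494 and 1053862 and then 1226, 1634 and 1134. SESA3, a napin, had 699478, 770224 and 744261 and then 1669, 2493 and 2152. Cruciferin and vicilin messages together went from 16.86% ± 0.341 of all counts to 0.02785% ± 0.00919, and napin messages from 6.031% ± 0.241 to 0.02189% ± 0.00392 (SD, n = 3). Of the oil body proteins all 9 fell, 8 of them by at least 8-fold (median -8.98). All falls of the 3 lists held under all scalings. OLEO1, the most abundant oleosin, had counts of 260062, 264906 and 243875 and then 205, 248 and 162.

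All 19 LEA genes fell by at least 8-fold, and fell under all scalings, with a median of -5.01 and a range from -13.70 for ECP31 to -3.47. RAB18, a dehydrin, had counts of 265457, 294618 and 314280 and then 989, 1081 and 377 (log2 fold change -9.47). AT3G15670, a group 3 LEA gene, had 229627, 242356 and 249901 and then 17571, 22655 and 4092 (log2 fold change -5.01), so it kept more counts than SESA5 and OLEO1, which had like counts in mature seeds. EM6, a group 1 LEA gene named here after its values were seen, had 127927, 125983 and 124077 and then 546, 558 and 174. In RAB18, AT3G15670 and EM6 stage II replicate 3 was the lowest of the stage II libraries. The share of LEA messages was 6.955, 7.236 and 7.297% in mature seeds and 0.3823, 0.4615 and 0.1207% at stage II.

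Promoter sequences are shown for members of the lists that fell because motifs known to be read by maturation regulators could be searched in them. The window was the 250 bases before the annotated gene start in the RefSeq annotation of assembly TAIR10.1, and 18275 of the 18388 genes tested had one. Searched on both strands were the RY element CATGCA, which B3-domain factors such as ABI3 bind, and the ABRE core ACGTG, which bZIP factors such as ABI5 bind. Capitals mark these matches. CATGCATG is an RY match on both strands, and CACGTG (the G-box) is an ABRE core on both strands. The windows are SESA3 at chr4:13611546-13611795 (plus strand), SESA5 at chr5:22239188-22239437 (minus strand), OLEO4 at chr3:10242994-10243243 (plus strand) and EM6 at chr2:16780369-16780618 (minus strand).
SESA3: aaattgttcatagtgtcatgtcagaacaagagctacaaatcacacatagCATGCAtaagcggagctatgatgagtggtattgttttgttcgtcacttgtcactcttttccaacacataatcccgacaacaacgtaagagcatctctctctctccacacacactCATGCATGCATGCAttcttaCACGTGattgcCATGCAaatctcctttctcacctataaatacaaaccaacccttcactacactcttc
SESA5: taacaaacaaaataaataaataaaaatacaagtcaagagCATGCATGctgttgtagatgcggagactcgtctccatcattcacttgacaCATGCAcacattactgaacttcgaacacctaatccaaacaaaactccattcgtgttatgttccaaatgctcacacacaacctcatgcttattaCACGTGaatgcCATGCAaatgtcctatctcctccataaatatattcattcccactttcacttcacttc
OLEO4: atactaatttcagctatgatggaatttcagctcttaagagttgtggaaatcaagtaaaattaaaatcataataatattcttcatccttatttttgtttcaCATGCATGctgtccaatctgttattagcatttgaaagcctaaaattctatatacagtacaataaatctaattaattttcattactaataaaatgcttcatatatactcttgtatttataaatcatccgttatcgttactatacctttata
EM6: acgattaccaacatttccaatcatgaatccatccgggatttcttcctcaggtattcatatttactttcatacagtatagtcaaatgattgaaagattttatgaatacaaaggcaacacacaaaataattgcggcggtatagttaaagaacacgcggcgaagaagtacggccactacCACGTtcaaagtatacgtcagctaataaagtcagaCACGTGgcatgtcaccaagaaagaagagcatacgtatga

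SESA3 had 9 matches of the 2 motifs and SESA5 had 6, and in both a G-box lay upstream of an RY match closest to the gene start. OLEO4 had an RY match on each strand and no ABRE core, and EM6 had 3 ABRE matches and no RY match. An RY match was found in 5 of 5 napin promoters, 9 of 9 oil body promoters and 6 of 8 12S and vicilin promoters, against 7.55% of all windows. It was found in 21.1% of LEA promoters. An ABRE core was found in 17 of 19 LEA promoters (89.5%) against 23.8% of all windows, and a G-box in 73.7% against 7.91%. In lists below that mostly rose, the ABRE core was in 41.2% of DNA replication and 35.4% of photosynthesis promoters. It was in 18.8% of ribosomal protein and 15.4% of expansin promoters. In lists below that mostly fell, it was in 66.7% of clock promoters and 27.8% of small heat shock and chaperone promoters. Over all genes with an 8-fold fall the shares were 13.0% for RY and 31.9% for the ABRE core, and over those with an 8-fold rise 10.4% and 25.9%. A match is a description of these letters and not a bound site.

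**Figure D3:**
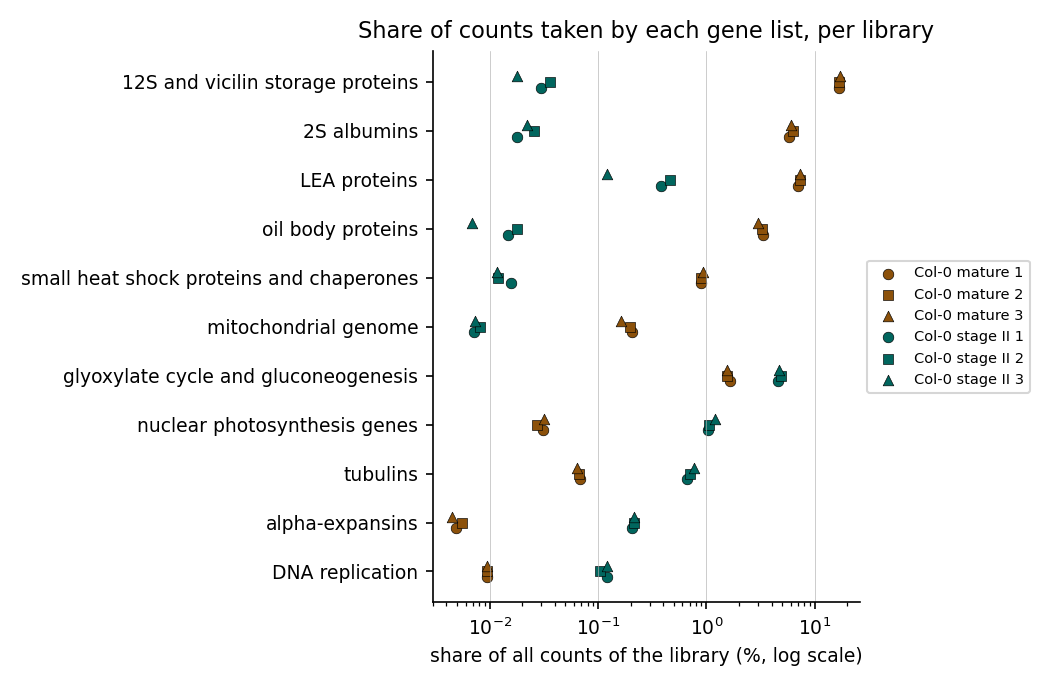
Share of all counts of each library taken by gene lists (percent, log scale), with one symbol per library. Storage, oil body, LEA and small heat shock protein lists lie at higher shares in the 3 mature libraries, photosynthesis, tubulin, expansin and glyoxylate cycle lists at higher shares in the 3 stage II libraries, and the LEA share of stage II replicate 3 (0.1207%) lies below those of the other 2.

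Small heat shock proteins and chaperones of the seed also left the pool. Of 18 tested, 16 fell and 1 rose, 14 of the falls being of at least 8-fold (median -8.66), and the 16 falls and the rise held under all scalings. Of the members tested, 5 were at the floor at stage II, and 11 of the others fell. The share of the list went from 0.9017% ± 0.0257 to 0.01315% ± 0.00222 (SD, n = 3). HSP17.6A had counts of 54764, 60260 and 64274 and then 19, 19 and 20. HSP70, a stress-inducible chaperone, had 51137, 45608 and 48006 and then 941, 592 and 298. HSFA9, the heat shock factor expressed during seed maturation, had 3451, 3638 and 4140 and then 2, 1 and 0, a fall of at least 2474-fold, with a log2 fold change that went from -12.64 to -13.40 without stage II replicate 1. The member that rose, AT4G21870, an HSP20-like gene, had 1, 0 and 3 and then 1432, 1170 and 1634, at least 236.9-fold, and its log2 fold change went from 8.97 to 10.26 without mature replicate 3. Without stage II replicate 3 the same numbers of list members rose and fell.

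Regulators of maturation and dormancy mostly fell, but not all to the floor. Of 17 tested, 14 fell and 2 rose (median -3.75), and 11 falls and 2 rises held under all 5 scalings. Of all genes tested 41.0% fell and 47.3% rose. Of the regulators tested, 3 were at the floor at stage II and so had to fall, and 11 of the others fell. DOG1, the dormancy gene, had counts of 566, 523 and 470 in mature seeds and of 0, 0 and 0 at stage II, a fall of at least 343.4-fold. ABI5, the bZIP factor of ABA responses, had 6948, 6924 and 7695 and then 1264, 1474 and 426, with the lowest value in stage II replicate 3 (log2 fold change -3.75, SE 0.39). ABI3, the B3 factor of maturation, stayed abundant, with 5164, 5431 and 5470 and then 5936, 6335 and 4093, and its log2 fold change of -0.96 with TMM scaling became 0.0127 with library size alone. SPT, a bHLH gene with a role in seed dormancy, rose from 55, 57 and 61 to 1041, 1033 and 1438 counts. Of other genes with a known part in holding germination back, MFT had 1138, 1204 and 1276 and then 10, 24 and 11, SOM had 12798, 12788 and 13570 and then 1921, 2682 and 1509, and the bZIP gene EEL had 1540, 1730 and 1612 and then 180, 202 and 123.

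Most genes of ABA synthesis and breakdown fell, and 1 gene of breakdown rose from near zero. Of 12 genes of synthesis and breakdown tested, 9 fell and 3 rose (median -2.06), 4 of the falls and 2 of the rises being of at least 8-fold. Under all scalings 7 falls and 3 rises held. Of all genes tested 41.0% fell and 47.3% rose, 8.24% and 18.0% by at least 8-fold. This is also the background for ABA signalling below. NCED9, an enzyme of the committed step of synthesis, had counts of 324, 302 and 276 and then 9, 21 and 10, and NCED6 had 71, 61 and 61 and then 3, 8 and 6. ABA1, zeaxanthin epoxidase, fell by 2.56 on the log2 scale. CYP707A2, an ABA hydroxylase of seeds, had 1040, 1088 and 991 and then 708, 590 and 479 (log2 fold change -1.80). CYP707A3, another ABA hydroxylase, had 2, 1 and 4 and then 1181, 928 and 1245, and its log2 fold change of 7.86 became 8.48 without mature replicate 3. In ABA signalling, 10 of 12 fell and 2 rose (median -1.67), 7 and 2 under all scalings. The phosphatase AHG1 fell by 4.31 on the log2 scale and the kinase SNRK2.3 by 1.58, and the phosphatase HAI1, with 97, 92 and 82 counts and then 1, 0 and 0, fell at least 59.7-fold, its log2 fold change going from -8.49 to -9.97 without stage II replicate 1. The kinase OST1 went against the rest, from 31, 35 and 28 to 654, 705 and 834 counts.

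Genes of the last step of gibberellin synthesis rose from near zero. GA3OX1, which makes bioactive gibberellin, had counts of 1, 0 and 0 in mature seeds and of 280, 401 and 564 at stage II, at least 69.82-fold higher. GA3OX2, its paralog, had 3, 3 and 12 and then 3587, 3620 and 4230 (log2 fold change 8.30, SE 0.24). Mature values of both were at or close to zero, and their log2 fold changes became 11.38 for GA3OX1 without mature replicate 1 and 9.28 for GA3OX2 without mature replicate 3. The other members with an 8-fold rise were GA20OX1 and GA20OX2, of the step before it, with log2 fold changes of 3.79 and 4.67, whereas GA20OX3 fell by 2.89. These 3 genes were named after their values were seen. GA3, ent-kaurene oxidase, fell by 1.66 and GA2OX2, a deactivating enzyme, by 3.45 on the log2 scale. Over the list 4 of 11 rose and 6 fell, 4 and 3 under all scalings, with a median of -0.74 that became 0.23 with library size alone. Among genes of gibberellin response 8 of 13 rose and 5 fell (median 1.699), 7 and 3 under all scalings. Of all genes tested 47.3% rose and 41.0% fell, which is the background of both lists. GASA4, a gibberellin-regulated peptide, rose from 11, 10 and 26 to 13605, 12500 and 13891 counts. The receptor GID1A fell by 3.53, and of the DELLA repressors RGL3 fell by 1.38. RGL2, the DELLA protein best known for restraining germination, had a log2 fold change of 0.46 with TMM scaling and of 0.15 with reference gene scaling, where it was not called (adjusted p = 0.159, edgeR).

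Alpha-expansins, which loosen cell walls, rose. Of 13 tested, 2 were at the floor in mature seeds, and the other 11 all rose, 7 of them at least 8-fold. The median over the 13 was 4.80, all 13 were called as risen under every scaling, and the share of counts of the list went from 0.004986% ± 0.000508 to 0.2117% ± 0.00501 (SD, n = 3). EXPA2, which is known from germinating seeds, had counts of 90, 66 and 109 and then 11490, 13604 and 14269. EXPA3 had 408, 474 and 321 and then 8321, 7900 and 7510. EXPA11, with no count in mature seeds, had 127, 119 and 126, at least 20.83-fold higher. XTH genes, whose enzymes cut and rejoin xyloglucan, and MAN genes, whose enzymes cleave mannan, moved both ways. Of 16 in the list that were tested, 5 were at the floor in mature seeds, and of the other 11, 9 rose and 2 fell, under all scalings. XTH5 rose from 94, 75 and 80 to 5474, 6025 and 6982 counts and XTH31 from 8, 5 and 16 to 4615, 4496 and 6446. XTH33, at 0 in all mature libraries, had 133, 125 and 385, at least 35.93-fold higher, and its log2 fold change of 10.33 became 9.51 without stage II replicate 3. The mannanase MAN7 rose by 1.42 and MAN6 fell by 3.84 on the log2 scale. The list does not hold XTH25, described above, or MAN1, which overlaps another gene, is uncertain, was named after its values were seen and had 121, 122 and 107 counts and then 0, 0 and 0. Over the 17 genes of the XTH family tested, the summed level fell from 2963, 2887 and 2781 CPM to 599.6, 565.4 and 804.8 CPM.

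Transcripts for turning oil into sugar were already abundant in the mature seed and took a larger share afterwards. The glyoxylate cycle and gluconeogenesis genes held 1.645, 1.543 and 1.559% of the counts in mature seeds and 4.535, 4.84 and 4.625% at stage II. These shares are of all counts, as with library size alone, and ICL held most of the counts of the list in both groups. ICL, isocitrate lyase, had 202528, 191890 and 199871 counts and then 558598, 598760 and 575796, the largest value of any gene at stage II per length. Its log2 fold change was 0.56 with TMM scaling (SE 0.16) and 0.24 with reference gene scaling, where it was not called (adjusted p = 0.184, edgeR). MLS, malate synthase and the partner of ICL in the cycle, had 56306, 51709 and 51179 and then 76115, 75495 and 78915 counts, a log2 fold change of -0.45 with TMM scaling and 0.52 with library size alone. PCK1, which commits the carbon to gluconeogenesis, had 19353, 18407 and 18958 and then 111242, 111138 and 115402 (log2 fold change 1.59, SE 0.11). PMDH2, a peroxisomal malate dehydrogenase, had a far lower starting level, 19, 17 and 17, and then 1818, 1703 and 1874. Over the list 7 of 10 rose and 1 fell (median 1.02), of which 6 rises and no fall held under all scalings. The shares of all genes tested were 47.3% and 41.0%.

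Of 15 genes of oil breakdown 8 rose and 5 fell (median 0.38), and 7 and 3 did so under all scalings, beside 47.3 and 41.0% of all genes tested. Their share went from 0.2793% ± 0.0176 to 0.7087% ± 0.00969. MFP2, a beta-oxidation enzyme, rose by 1.09 on the log2 scale. KAT5, a thiolase, had counts of 3, 1 and 3 and then 55, 57 and 51, at least 9.14-fold higher. PXA1, the transporter that carries fatty acids into the peroxisome, fell by 1.49, and the thiolase PED1 had a log2 fold change of 0.20 that did not pass the test (-0.11 with reference gene scaling). Of 9 proteases linked to storage proteins 5 rose and 4 fell, 5 and 2 under all scalings, beside the same shares of all genes tested. The median was 1.51, and -0.53 with the DESeq2 Wald test, which has no filter on low counts. RD21A, a cysteine protease, rose from 97, 100 and 74 to 16156, 14036 and 18661 counts. BETA-VPE, a vacuolar processing enzyme of seeds, had 16787, 16609 and 16140 and then 3847, 4154 and 2434, and the aspartic protease PASPA1 fell by 1.48 on the log2 scale.

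**Figure D4:**
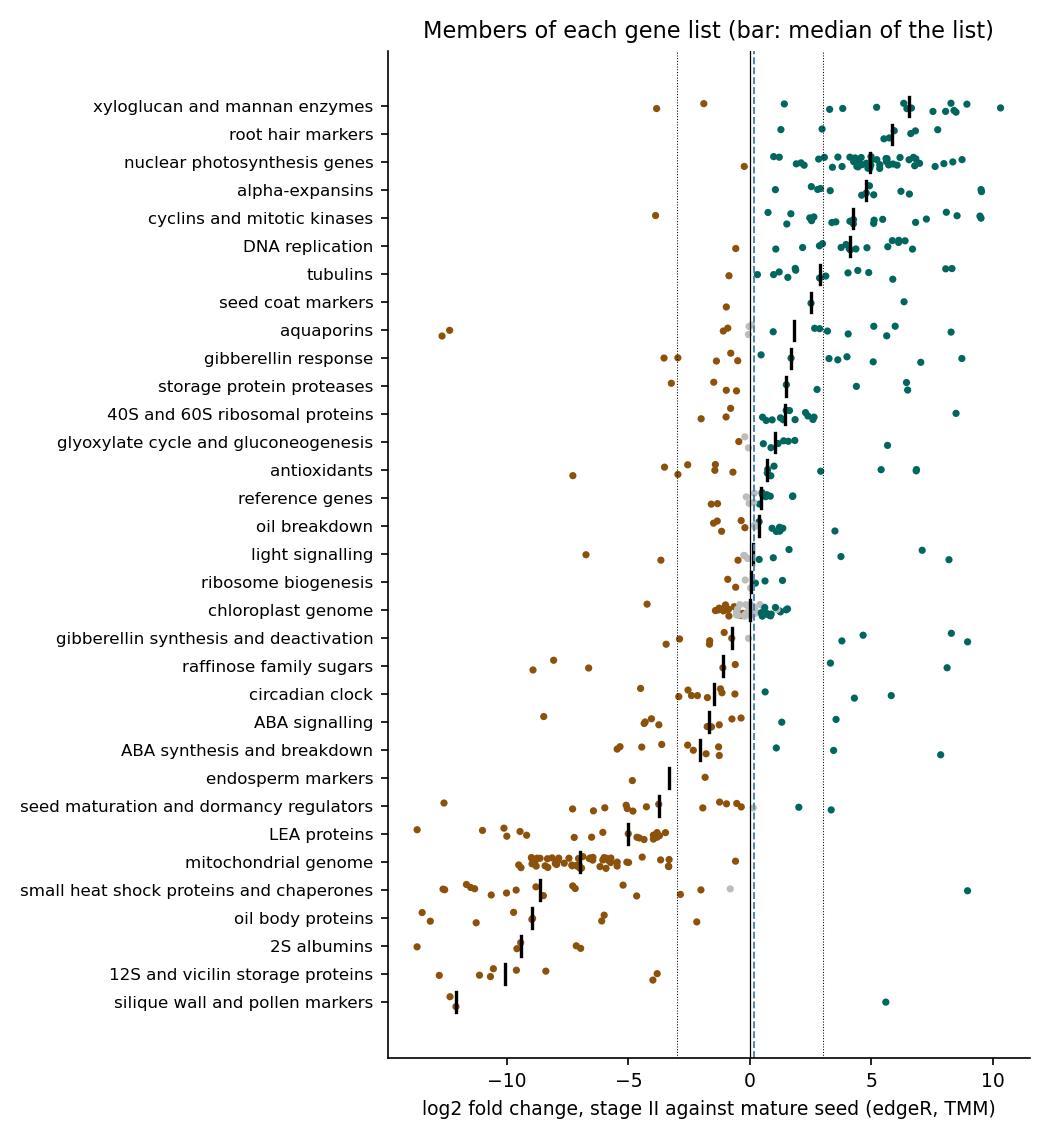
Log2 fold change (stage II against mature seed, edgeR with TMM) of every tested member of the 33 gene lists, ordered by list median, with risen members in green, fallen members in brown, members that did not pass in grey and a bar at the median. Dotted lines mark 8-fold and the dashed line the median of all genes tested (0.17). Medians of the 12S, 2S and oil body lists lie between -10.09 and -8.98 and that of the expansins at 4.80. Lists with many members at the floor in mature seeds, such as root hair markers, lie high through the filter. Medians near 0, such as those of ribosome biogenesis, light signalling and the chloroplast genome, have another sign with reference gene scaling.

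Nuclear photosynthesis genes had already risen when the radicle tip was just visible. Of 48 tested, 47 rose and 1 fell, 41 of the rises being of at least 8-fold (median 4.96), and the 47 rises held under all scalings. Of the members tested, 1 was at the floor in mature seeds, and 46 of the other 47 rose. RBCS1A, a Rubisco small subunit, had counts of 765, 609 and 941 in mature seeds and of 59108, 61723 and 66490 at stage II. RBCS3B had 51, 32 and 87 and then 28314, 27299 and 30501, and RBCS2B had 14, 13 and 33 and then 17022, 16079 and 18167. These near-identical paralogs may share reads, so the split among them is uncertain. The 1 exception, the antenna gene LHCB4.1, had 2033, 1677 and 2093 and then 3204, 3084 and 3535, and its log2 fold change was -0.23 with TMM scaling, 0.74 with library size alone and 0.01 with upper quartile scaling. It was not called without mature replicate 1 or 3 or without stage II replicate 1 or 2 (log2 fold change -0.21, -0.17, -0.20 and -0.20). Photosynthesis messages took 0.03014% ± 0.00263 of counts in mature seeds and 1.091% ± 0.0901 at stage II (SD, n = 3).

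Transcripts of DNA replication, mitosis and the cytoskeleton rose from low levels. In DNA replication 16 of 17 rose and 1 fell, 12 by at least 8-fold (median 4.14), and the 16 rises held under all scalings. PCNA1, the sliding clamp, had counts of 5, 3 and 4 and then 892, 720 and 922. RNR1 and TSO2, subunits of ribonucleotide reductase, rose by 1.07 and 3.96 on the log2 scale. The member that fell was the histone H3 gene HTR3, one of a family of near-identical copies, with a log2 fold change of -0.58 with TMM scaling and 0.39 with library size alone. The promoter of MCM3, a subunit of the replicative helicase, is shown as an example of the site II motif TGGGCC, in capitals on either strand. The motif was found in 8 of 17 promoters of this list (47.1%), in 43.8% of the 16 from genes annotated as 40S or 60S ribosomal proteins and in 3181 of all 18275 windows. It was also found in 10 of 18 promoters of the small heat shock and chaperone list, most of which fell, and in 10.7% of the 8-fold rises and 9.97% of the 8-fold falls. It is at chr5:18773707-18773956 (minus strand), with 3 matches, all on the reverse strand.
MCM3: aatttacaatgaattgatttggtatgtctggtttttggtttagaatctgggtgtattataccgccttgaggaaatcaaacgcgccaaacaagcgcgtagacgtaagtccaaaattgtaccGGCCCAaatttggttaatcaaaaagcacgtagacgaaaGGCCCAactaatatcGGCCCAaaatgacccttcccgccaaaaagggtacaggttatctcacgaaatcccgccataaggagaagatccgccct

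MCM3 had counts of 11, 4 and 4 in mature seeds and of 937, 752 and 1003 at stage II, and its log2 fold change of 6.14 became 6.78 without mature replicate 1. Of 21 cyclins and mitotic kinases, 20 rose and 1 fell (median 4.27), and these held under all scalings. Of the 21, 7 were at the floor in mature seeds, and of the other 14, 13 rose and 1 fell. CYCD3;2, a D-type cyclin of the G1 phase, rose from 176, 165 and 177 to 2098, 2116 and 2187 counts, CYCD2;1 rose by 0.75 on the log2 scale, and CYCD1;1, which is known to act early in germination, had 1, 1 and 9 and then 281, 242 and 254 (log2 fold change 5.12, and 6.92 without mature replicate 3). CYCB2;4, a mitotic cyclin, had 0, 0 and 0 and then 130, 120 and 117, at least 20.55-fold higher. CYCD7;1 was the member that fell, from 15, 21 and 12 to 3, 2 and 1. Of 15 tubulins, 14 rose and 1 fell (median 2.87), 13 and 0 under all scalings, and the share of tubulin messages went from 0.06648% ± 0.00199 to 0.7105% ± 0.0533. TUA6 rose from 393, 433 and 427 to 23025, 24565 and 26528 counts and TUB3 by 1.89 on the log2 scale. TUB1 had 0, 10 and 8 and then 3463, 3278 and 4909, with a log2 fold change of 8.33 that became 7.74 without mature replicate 1, and TUA1 had a log2 fold change of -0.86 with TMM scaling and 0.11 with library size alone.

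The list of cytosolic ribosomal proteins holds only the 24 genes whose annotation names a 40S or 60S ribosomal protein, and its values cover these alone. Of 16 tested, 13 rose and 3 fell (median 1.44), 12 and 1 under all scalings. The share of the list went from 0.1023% ± 0.00701 to 0.4383% ± 0.00681 of counts. P40 rose by 0.67 and AT1G01100 by 1.26 on the log2 scale, RPL18AA fell by 2.00, and AT5G02440, at 0 in mature seeds, had counts of 74, 46 and 60, at least 10.05-fold higher. Of 7 genes of ribosome biogenesis 3 rose and 2 fell, 2 and 0 under all scalings (median 0.03, and -0.28 with reference gene scaling), beside 47.3 and 41.0% of all genes tested. FIB2, a fibrillarin, rose by 1.35 on the log2 scale. Its paralog FIB1 had a value of -0.91 with TMM scaling and 0.06 with library size alone, NUC1, a nucleolin, of -0.58 and 0.39, and NAP57, a pseudouridine synthase, of -0.19 and 0.78.

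Among aquaporins the seed forms were lost, several other members rose, and the summed share of the list fell. It went from 0.5853% ± 0.0218 of counts to 0.1934% ± 0.0226 (SD, n = 3). TIP3;1 and TIP3;2, the tonoplast aquaporins of seeds, had counts of 51995, 49808 and 48760 and of 54436, 53693 and 52186 in mature seeds, and of 9, 25 and 22 and of 15, 17 and 16 at stage II. PIP2;8, a plasma membrane aquaporin, had 2, 1 and 3 and then 1403, 1300 and 1182, at least 217.6-fold higher. Over the list 9 of 16 rose and 4 fell (median 1.82), 8 and 2 under all scalings, beside 47.3 and 41.0% of all genes tested. Of the 16, 2 were at the floor in mature seeds, PIP2;8 among them, and of the other 14, 7 rose and 4 fell. Of 7 genes of raffinose family sugars 2 rose and 5 fell (median -1.11), 2 and 3 under all scalings, beside the same 47.3 and 41.0%. GOLS2 and GOLS1, galactinol synthases that feed raffinose synthesis, had 10117, 9874 and 9638 and then 89, 107 and 20 counts, and 7744, 8395 and 8111 and then 36, 41 and 21. AGAL2, an alpha-galactosidase, had 1, 6 and 7 and then 3086, 2593 and 2236.

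Of 15 antioxidant genes 8 rose and 7 fell (median 0.72), 7 and 6 under all scalings, beside 47.3 and 41.0% of all genes tested. PER1, the seed peroxiredoxin, had counts of 53649, 54702 and 50835 and then 785, 890 and 339. CAT3, a catalase, fell by 3.51 on the log2 scale, whereas CAT2 had a value of -0.70 with TMM scaling and 0.28 with library size alone. APX1, the cytosolic ascorbate peroxidase, rose from 24, 34 and 40 to 6718, 6590 and 9394 counts. Among light signalling genes 6 of 12 rose and 3 fell, 5 and 2 under all scalings, beside the same shares of all genes tested (median 0.15, and -0.17 with reference gene scaling). ELIP2, an early light-induced protein, had 4, 7 and 10 and then 3463, 2712 and 6299. PIF6, a phytochrome-interacting factor with a role in seed dormancy, had 800, 883 and 889 and then 14, 13 and 20. The phytochrome gene PHYA had a log2 fold change of -0.09 with TMM scaling and 0.88 with library size alone.

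Clock genes differed between groups, and the time of day of sampling is not given in the sources used here. Of 12, 3 rose and 9 fell (median -1.48), 2 and 7 under all scalings, beside 47.3 and 41.0% of all genes tested. LHY, a morning-phased clock gene, had counts of 55, 39 and 56 and then 6155, 5587 and 5183 (log2 fold change 5.83). CCA1, its partner, was named after its values were seen and had 44, 40 and 42 and then 2173, 1602 and 1194. The evening-phased TOC1 fell by 2.55 on the log2 scale, and PRR5 had 510, 413 and 450 and then 66, 40 and 14. In ros1-4 the same step had log2 fold changes of 0.25 for LHY, -0.996 for CCA1, -1.19 for TOC1 and 0.46 for PRR5. Whether the clock differs by genotype, sampling time or stage was not tested.

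Reference genes and tissue markers give the scale of these changes. Of 14 reference genes tested, 8 rose and 2 fell by at most 1.77 on the log2 scale in either direction (median 0.45), 5 and 2 under all scalings. The shares of all genes tested that rose and fell were 47.3% and 41.0%. ACT2 rose by 1.77, GAPC2 rose by 0.84 and UBQ10 fell by 1.59, so no single one of these 3 would have given the same scale. Of 8 endosperm markers 5 were at the floor in all 6 libraries and 2 were tested, both of which fell under all scalings. EPR1, an extensin-like gene of the endosperm, had counts of 400252, 477036 and 594689 in mature seeds and of 23981, 40619 and 37108 at stage II, and AGL62 had 22, 12 and 19 and then 12, 7 and 10. EPR1 alone took 2.136 to 3.107% of the counts in mature seeds and 0.1248 to 0.2165% at stage II, which is nearly the whole of the summed share of the endosperm markers, so that share describes 1 gene. Of 10 seed coat markers 3 were tested, of which MUM4 and MUM2 rose under all scalings, by 2.52 and 6.35 on the log2 scale, and the subtilase gene SBT1.7 had a value of -0.97 with TMM scaling and 0.00 with library size alone. The summed share of the seed coat markers was 0.06777 to 0.07008% and then 0.07016 to 0.08353%, of which SBT1.7 alone took 0.06731 to 0.06964% and then 0.06182 to 0.07649%. The part of a changed mixture of tissues in the results above was not tested.

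Of 17 root hair markers 16 were at the floor in all mature libraries. Of these, 7 were tested, and they could pass the filter only through stage II, so that their rise is a description. The summed share of the list was 0.0003299 to 0.0004323% in mature seeds and 0.0032 to 0.00707% at stage II. RHD6, a bHLH factor of hair fate and the only member above the floor in mature seeds, rose from 68, 59 and 60 to 314, 264 and 325 counts. LRX2, a wall protein of hairs, had 1, 0 and 1 and then 158, 233 and 565, at least 53.53-fold higher, and its log2 fold change of 7.74 became 7.04 without stage II replicate 3. Of 7 silique wall and pollen markers 3 were tested. Of these 3, 2 were at the floor at stage II and passed the filter only through mature seeds, so that their fall is a description. VGD1 and VGDH1, neighbouring and similar pectin methylesterase genes known from pollen, had counts of 1204, 1559 and 1177 and of 1108, 1311 and 910 in mature seeds, and of 0, 1 and 0 each at stage II, falls of at least 869.0 and 734.1-fold. Their log2 fold changes of -12.35 and -12.11 became -13.85 and -13.60 without stage II replicate 2. ALC, a bHLH gene of the fruit, rose from 2, 8 and 3 to 425, 467 and 385 counts (log2 fold change 5.604, and 6.37 without mature replicate 2).

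Transcripts of the 2 organelle genomes went different ways. All 51 mitochondrial genes tested fell, 50 of them by at least 8-fold (median -6.99), and 50 of the falls held under all scalings. Of the 51, 17 were at the floor at stage II, and the other 34 all fell. ATMG01190 had counts of 10694, 10027 and 8439 in mature seeds and of 26, 41 and 48 at stage II, ATMG00090 had 3150, 3125 and 2725 and then 124, 119 and 90, and ATMG00570 had 187, 200 and 167 and then 1, 0 and 0 (log2 fold change -9.52, and -11.00 without stage II replicate 1). Together they took 0.1896% ± 0.0232 of counts and then 0.007544% ± 0.000481 (SD, n = 3). Of 61 chloroplast genes tested 14 rose and 17 fell, 8 and 1 under all scalings, with a median of 0.02 that had no stable sign, and with library size alone the counts were 38 and 1. With TMM scaling 47.3% of all genes tested rose and 41.0% fell. ATCG00830 rose by 0.88 and ATCG00650 by 1.55 on the log2 scale, and ATCG00020 had 437, 326 and 312 and then 30, 21 and 62 counts. ATCG01130, with the most counts of them, had a log2 fold change of 0.47, was not called with reference gene scaling (0.16), and was not called without mature replicate 1 or 3 or stage II replicate 1 or 2 (0.32 to 0.49). The libraries were made after mRNA enrichment, and its part in organelle values was not tested.

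Stage II replicate 3 differed from the other stage II libraries in several gene lists. Over all genes with a count it was the lowest of the stage II libraries for 37.3% and the highest for 38.4%. Among LEA genes it was the lowest for 17 of 19, with a median of -1.61 on the log2 scale against the mean of the other libraries and summed levels of 2696, 3316 and 870.1 CPM in replicates 1, 2 and 3. Among photosynthesis genes it was the highest for 43 of 49, and among root hair markers for 16 of 16, with summed levels of 22.57, 25.85 and 50.95 CPM. Clock genes had their lowest value in it for 11 of 12 and chloroplast genes for 62 of 79. Over the genes with an 8-fold rise it was the highest for 58.3%, and over those with an 8-fold fall the lowest for 46.6%. The 3303 rises and 1515 falls of at least 8-fold were all still called in their direction without this library.

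**Figure D5:**
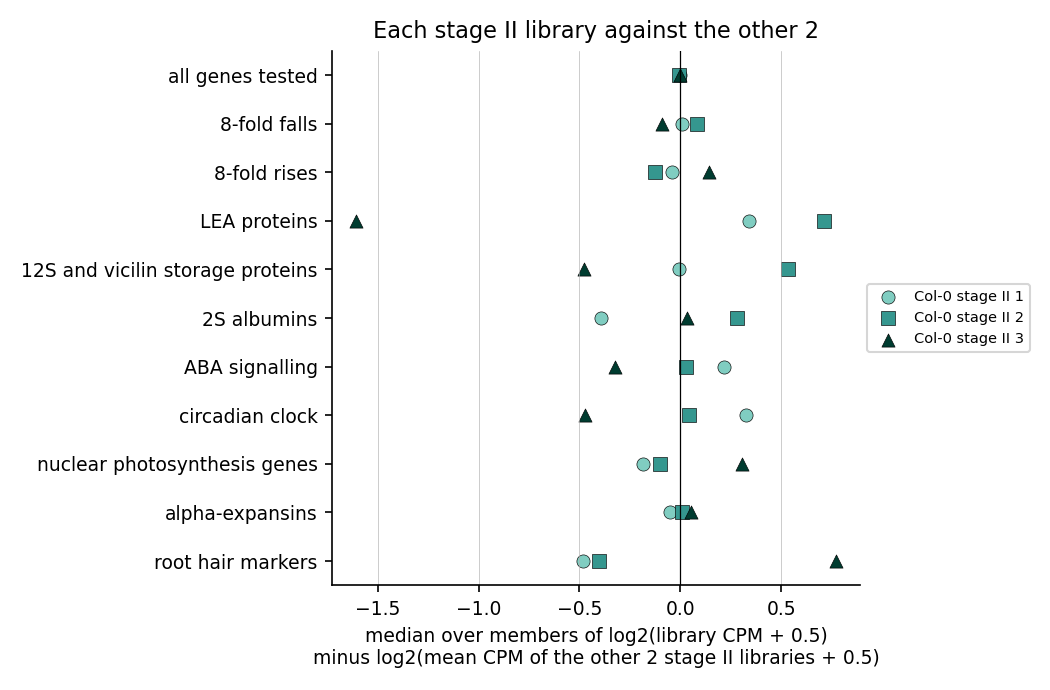
Median over the members of each gene list of the log2 level in one stage II library minus that of the mean of the other stage II libraries, with 0.5 CPM added to both, one symbol per library. Replicate 3 lies lowest for LEA genes (-1.61) and clock genes (-0.47) and highest for root hair markers (0.77) and photosynthesis genes (0.31).

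The same step in the 6 libraries labelled ros1-4 gives a second set of values for it. There 16875 of 18822 genes tested were called (89.7%). Of the calls, 15223 were shared with Col-0, 93.8% of the Col-0 calls and 90.2% of those in ros1-4, and 15076 of the shared calls (99.0%) had the same direction. Of the 3303 Col-0 rises of at least 8-fold, 3223 were also called as risen, and of the 1515 falls 1446 were also called as fallen. All 8 cruciferin and vicilin genes, all 5 napins, all 9 oil body genes, all 19 LEA genes and 52 of 52 mitochondrial genes tested fell there too, and 15 of 15 expansins and 48 of 49 photosynthesis genes rose. The difference between the genotypes was not tested for these lists.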

How the data were processed

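RNA of entire seeds was sequenced in 18 libraries, of which 6 are used here and 6 of ros1-4 beside them. The authors assigned reads to Araport11 transcripts with Salmon, and the estimated counts that they deposited carry no normalization for depth or length. No mapped sample column was left out.

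Counts of the 48268 transcripts were added up per gene (27587 genes) and rounded, and in the 6 libraries 22823 genes had a count. Changes were tested with edgeR 4.0.16 in R 4.3.3 (TMM scaling, filterByExpr, two-sided quasi-likelihood test, Benjamini-Hochberg adjustment over all genes tested, adjusted p-value under 0.05). The authors used DESeq2, which is an alternative here (version 1.42.0). The scripts were tested on simulated data in which 200 genes were changed by known folds. Far fewer genes changed there than in these data, so that test does not bear on the choice of scaling. A group with at most 3 counts of a gene in every library is at the floor, and a fold against it is a lower bound computed from 3 counts per library. P-values measure the spread between 3 biological replicates of 100 seeds. Total counts of about the same size in all libraries give precision for abundant genes, and folds of genes with few counts in 1 group cover counting error poorly.

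Named genes were the 12 largest rises and falls by ratio of mean CPM, the 5 largest gains and losses of CPM and genes of known role. In each of 33 gene lists the 2 most abundant members and the called members with the largest rise and fall were also named. The 12 rises and falls were taken from called genes of at least 10 CPM in the higher group. Their groups had to be without overlap, and their direction had to hold with library size alone and without each library. EM6, MCM3, CCA1, MAN1, GA20OX1, GA20OX2, GA20OX3 and the genes of the closing observations were named after their values were seen. Members and lists were chosen with earlier results of these data known. Of the 440 gene codes in the lists, 387 carried the RefSeq symbol, and 27392 of the 27587 genes matched the RefSeq annotation of TAIR10.1.

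Alternatives were DESeq2 size factors, library size alone, upper quartile and reference gene scaling in the edgeR fit, DESeq2's Wald test, an edgeR fit without the filter, one with all 18 libraries, one with replicate number as a block, an adjusted p-value under 0.01, and leaving out each library.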

Additional observations from a re-analysis of the deposited data

Results flagged for a closer look

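Among the named genes, 5 had all Col-0 stage II libraries on one side of the Col-0 mature libraries and all ros1-4 stage II libraries on the opposite side of the ros1-4 mature libraries. The difference between the genotypes was not tested. The clock gene PRR5 had a log2 fold change of -4.50 in Col-0 and 0.46 in ros1-4, and the clock gene CCA1 of 4.31 and -0.996. The thiolase PED1 had 0.20 and -0.13, the nucleolin NUC1 -0.58 and 0.30, and the pseudouridine synthase NAP57 -0.19 and 0.38. The Col-0 values of PED1, NUC1 and NAP57 lie within the shift that another scaling brings.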

How the results depend on the processing

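The numbers of genes called and of 8-fold changes stayed within 1.5 times of those reported under every alternative, except that library size alone gave 4316 falls in place of 7535. Leaving out each library in turn gave 16069 to 16470 calls, 8607 to 8812 rises, 7391 to 7658 falls, 3320 to 3488 rises of at least 8-fold and 1541 to 1630 such falls. With the replicate number as a block, 16142 genes were called. Same-numbered libraries did not visibly deviate together (correlations 0.0278, 0.00412 and 0.0234 for numbers 1, 2 and 3). These values cannot exclude that the numbers pair the samples, which the sources used here do not state.

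With library size alone the log2 fold change changed sign for ABI3 (0.0127), MLS (0.52), LHCB4.1 (0.74), HTR3 (0.39), TUA1 (0.11), NUC1 (0.39), NAP57 (0.78), FIB1 (0.0627), CAT2 (0.28), PHYA (0.88) and SBT1.7 (0.0034). It did so with upper quartile scaling for LHCB4.1 (0.0119), NAP57 (0.0541) and PHYA (0.15), and with reference gene scaling for PED1 (-0.11). The other named genes kept their direction under all alternatives. Medians of lists changed sign for gibberellin synthesis with library size alone (0.23), the DESeq2 Wald test (0.42) and no filter (1.16), for storage protein proteases with the Wald test (-0.53) and no filter (-0.51), for seed coat markers with the Wald test (-1.44) and no filter (-1.62), and with reference gene scaling for ribosome biogenesis (-0.28) and light signalling (-0.17). The median of the chloroplast genome changed sign with reference gene scaling (-0.29), the Wald test (-0.0101), the replicate block (-0.0061), and on leaving out a library, where it ran from -0.17 (without mature replicate 3) to 0.13 (without stage II replicate 3). The shift by library size alone follows from its construction, since TMM factors differ between the stages, and other causes were not tested. Ranking by the edgeR log2 fold change in place of the ratio of means would have named none of the same 12 rises and 7 of the same 12 falls. Folds of genes with a few counts in 1 group are limited by depth.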

Other observations

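Gene families were counted by the wording of their RefSeq product names, after the values had been seen, so the following is a description with no test. The Cysteine/Histidine-rich C1 domain proteins, zinc-binding proteins of largely unknown function, had 141 genes, of which 60 were tested. Of these 60, 44 had at most 3 counts in every mature library and passed the filter only through stage II. Of the other 16, 11 rose and 3 fell, 7 of the rises being of at least 8-fold. Of all 16800 genes tested that were above the floor in mature seeds, 7105 rose, 1764 of them by at least 8-fold, and 7535 fell. No C1 domain gene had more than 1144 counts in a stage II library. AT5G02350 had counts of 0, 0 and 0 in mature seeds and of 315, 300 and 525 at stage II, at least 63.78-fold higher. AT3G26240, whose span overlaps another gene and whose value is therefore uncertain, went the other way, from 91.52 to 8.876 CPM (log2 fold change -3.37).

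Of 13 3-ketoacyl-CoA synthases tested, enzymes that elongate fatty acids and some of which serve cuticular lipids, 3 were at the floor in mature seeds. Of the other 10, 7 rose by at least 8-fold, beside 1764 of the 16800 genes of any kind above that floor. KCS10 had counts of 267, 262 and 252 and then 5101, 4988 and 7263. KCS20 had 2, 0 and 9 and then 1787, 1652 and 3367, with a log2 fold change of 8.25 that became 10.05 without mature replicate 3. In both genes stage II replicate 3 was the highest. Members above the floor in mature seeds rose by at least 8-fold in 5 of 11 genes named as peroxidase superfamily, 14 of 27 GDSL lipases and 11 of 20 serine carboxypeptidase-like genes, beside the same 1764 of 16800. Of the 27 serine carboxypeptidase-like genes tested, 5 fell by at least 8-fold, beside 8.24% of all genes tested.

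Several genes known from pollen were present in mature seeds and at the floor at stage II. They could pass the filter on low counts only through mature seeds, so that their fall is a description. Beside VGD1 and VGDH1, the pectin methylesterase inhibitor family gene AT2G47050 had counts of 358, 478 and 338 and then 1, 2 and 0 (at least 259.0-fold lower, log2 fold change -9.38, and -10.17 without stage II replicate 2). APPB1, a gene of the same family, had 446, 550 and 421 and then 0, 0 and 0. RALFL4, a signalling peptide of pollen tubes, had 81, 114 and 56 and then 0, 0 and 0. In ros1-4 their mean levels in mature seeds were 38.99 CPM for AT2G47050, 52.83 CPM for APPB1 and 10.88 CPM for RALFL4. Which tissue of the seed lots held these transcripts was not tested. Other members of the families moved both ways. Of the 25 genes tested in the family of AT2G47050 and APPB1, 10 rose and 12 fell, and of 12 RALF-like genes tested 5 rose and 6 fell. Of all genes tested 47.3% rose and 41.0% fell. By at least 8-fold 32.0 and 33.3% of the 2 families rose, beside 18.0% of all genes tested. Such falls were 44.0 and 50.0%, beside 8.24%, and include members at the floor at stage II, which had to fall.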
